A study of Mus musculus with 11 samples.

Results

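The cytosolic ribosome contains a large and a small subunit, and each of its proteins is made from its own gene. These genes were described in 1 RNA-seq library of mouse mammary tissue collected at parturition (L1). Members were all genes whose symbol starts with Rpl or Rps and a digit, together with Rplp0, Rplp1, Rplp2 and Rpsa. The S6 kinase genes, whose symbols start with Rps6k, were left out. This rule found 82 of the 14847 genes with a locus of 1 symbol, and a gene took the value of its highest locus. The tissue came from wild type mice on the mixed background 129SV::FVB/N::C57BL/6, lymph nodes had been removed, and RNA was poly(A)-selected. The mice had no treatment named in the labels, and their age and whether animals were pooled are not given there. The series also holds ChIP-seq of STAT5A and H3K4me3 at day 6 and day 13 of pregnancy and at L1, and its title names STAT5 recruitment followed by H3K4me3 as its subject. The lists of peaks and regions were not tied to the ribosomal protein genes, since positions of these genes in the build mm9 of the lists were not used here.

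Ribosomal proteins are needed in equal numbers for most positions of the particle, and surplus protein that finds no ribosomal RNA is degraded. Their mRNAs start with a C and a stretch of pyrimidines, the terminal oligopyrimidine tract, through which mTOR signalling and the RNA-binding protein LARP1 control their translation together. In the lactating gland the alveolar epithelium makes large amounts of a few milk proteins, and these are translated on ribosomes bound to the endoplasmic reticulum.

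Of the 82 members, 73 encode a protein of the cytosolic ribosome itself, 43 of the large and 30 of the small subunit. The other 9 are paralogs, pseudogenes and the gene of a binding partner, and they are described separately. Outside the rule, Fau and Gnb2l1 also encode proteins of the ribosome but carry other symbols. Rpl34 and Rpl7a lay in loci with several symbols, and no locus carried the symbol Rpl18 or Rps23. The locus of Rpl34 and the pseudogene Rpl34-ps1 stood at 1069 FPKM, and the locus of Rpl7a and its neighbour Surf2 at 128 FPKM. FPKM scales the fragments of a locus by its length and by the sequenced library, so that levels of different genes can be set side by side. The lengths used for the loci were not checked here, so ranks of genes and ratios between genes are approximate.

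Ribosomal protein genes of the core set were abundant as a group in the gland at parturition. Their median was 515 FPKM, with quartiles of 335 and 725 FPKM, whereas the median of all named genes was 3.90 FPKM. All 73 reached 10 FPKM, a level that 27.9% of all named genes reached, and 81 of the 82 members reached 1 FPKM, against 73.6% of all named genes. Of the core genes, 69 (94.5%) reached 100 FPKM, against 2.96% of all named genes. At 500 FPKM the count was 37 of 73 genes, or 50.7%, against 0.781% of all named genes. Members made up 71 of the 440 named genes at 100 FPKM or more, which is 16.1% of them, and 37 of the 116 at 500 FPKM or more, which is 31.9%. Among the 100 genes with the highest levels, 32 were core ribosomal protein genes. With 1 library no spread between animals could be measured, so no test was made, and genes that follow each other closely in level cannot be told apart. Sequencing depth is unknown because the table holds no counts.

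Milk protein transcripts stood far above them. The beta-casein gene Csn2 had 54.6 times the level of Rpl41, the highest ribosomal protein gene. The core genes together held 3.86% of the summed FPKM of loci with 1 symbol and 1.80% of that of all loci. Without the 20 named genes of the highest level, the share was 13.2%. The large subunit held 2.26% and the small subunit 1.60% of the summed FPKM of loci with 1 symbol.

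The tissue label was checked against markers. Epithelial genes were present, with Krt18 at 179, Krt8 at 129, Epcam at 108 and Krt14 at 54.2 FPKM. Adipocyte and muscle transcripts were present too, with Fabp4 at 723, Adipoq at 115 and Plin1 at 14.3 FPKM, and with Tnnt3 at 37.2 FPKM, while the lymphocyte genes Ptprc and Cd3e stood at 2.47 and 0.55 FPKM. In whole tissue, which cells supplied the ribosomal protein transcripts cannot be told, and fewer cells of a type and less RNA per cell cannot be told apart.

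Most of the core genes lay close together in level. Of the 73, 54 were within 2-fold of the median, 6 were above 2 times the median and 13 were below the lower limit of 257 FPKM. The interquartile range was 1.11 on the log2(FPKM + 1) scale. The extremes were wider, since Rpl41 had 113 times the level of Rpl31. In the ordered levels the largest step was the 2.67-fold gap between Rps2 and Rps28, which sets the lowest 4 genes apart from the other 69, and the next was the 2.19-fold gap between Rpl41 and Rpl35a.

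**Figure D1:**
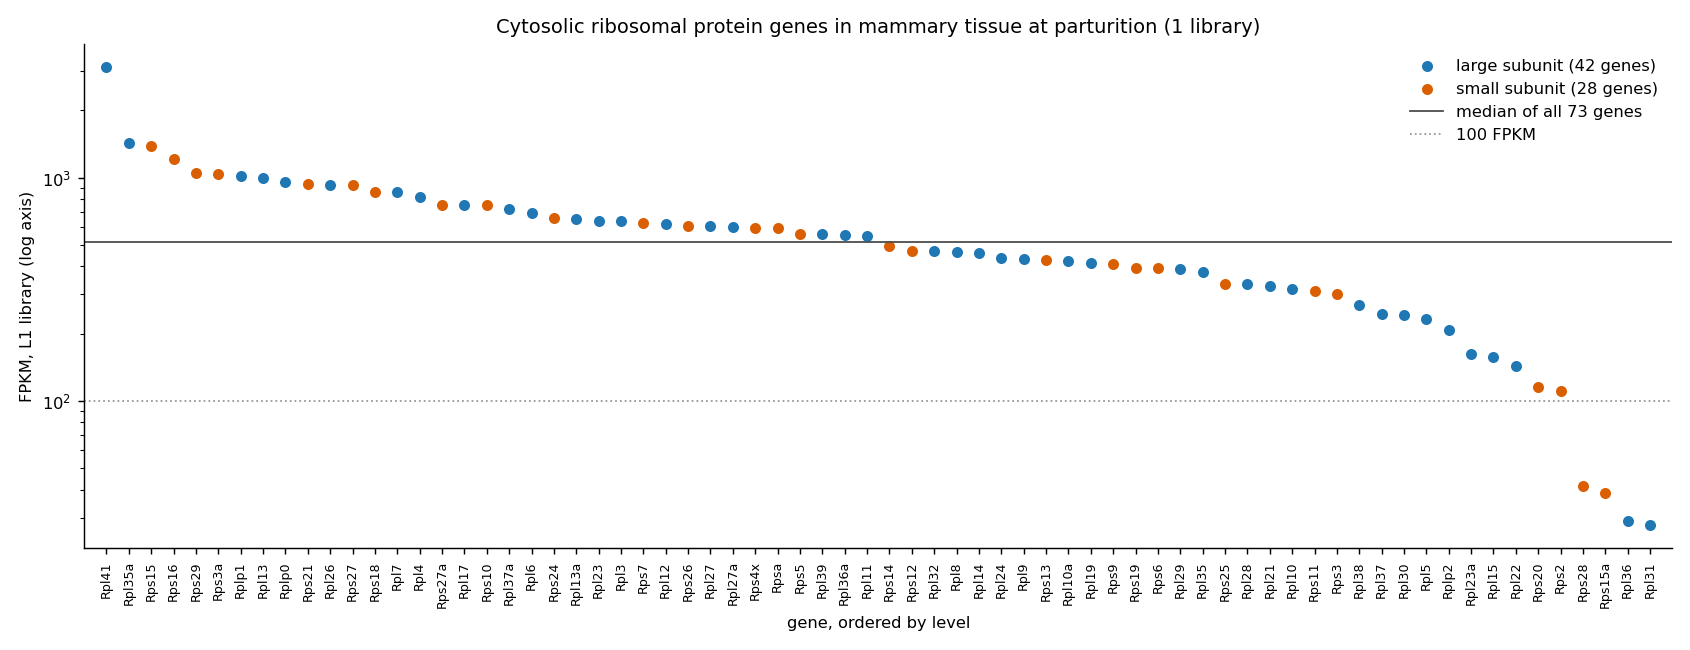
FPKM of 70 of the 73 core genes in the L1 library, on a log axis, ordered by level, with 1 point per gene in the colour of its subunit. The continuous line marks the median of all 73 genes, 515 FPKM, and 4 genes, Rps28, Rps15a, Rpl36 and Rpl31, lie below the dotted line at 100 FPKM.

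Rpl41, which encodes the smallest protein of the ribosome, led at 3129 FPKM, or 6.08 times the core median. Rpl35a, a large subunit gene, followed at 1426 FPKM. Rps15 and Rps16, whose proteins reach towards the tRNA sites of the small subunit, stood at 1378 and 1208 FPKM. Rps29, a small zinc-binding protein of the head, was at 1053 FPKM and Rps3a at 1032 FPKM. The stalk gene Rplp1 at 1013, Rpl13 at 998, the stalk gene Rplp0 at 959 and Rps21 at 938 FPKM completed the 10 highest. These 10 genes held 5 of each subunit.

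At the other end, Rpl31 was lowest at 27.6 FPKM, next to Rpl36 at 28.8 FPKM. Both are large subunit genes, and Rpl31 sits at the mouth of the tunnel through which the new protein leaves. The small subunit genes Rps15a and Rps28 stood at 38.6 and 41.4 FPKM. These 4 genes lay between 0.054 and 0.080 times the core median, although each encodes a constitutive part of the particle. Loci with no symbol held 53.3% of the summed FPKM of the table, and whether fragments of these 4 genes lie in such loci was not tested, so their levels and the ratios to them are uncertain. Above the gap came Rps2 at 110.4, Rps20 at 116, Rpl22 at 144, Rpl15 at 156, Rpl23a at 162 and Rplp2 at 208 FPKM.

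Near-identical copies make single levels uncertain, because the mouse genome holds many pseudogenes of these genes and the notes used here do not say how fragments matching several copies were counted. The gene tables name 24 copies of Rpl31 with a symbol ending in -ps and a number, 10 of Rpl36 and 8 of Rps15a, but none of Rps28. They also name 24 copies of Rps12, which stood at 468 FPKM. Over the 73 genes the Spearman correlation between the number of such symbols and the level was -0.23, a description only, since these symbols list only some of the copies. The 58 genes with at least 1 such symbol had a median of 497 FPKM, and the 15 with none had 544 FPKM. The part of such copies in the low levels was not tested.

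Levels of large and small subunit genes overlapped widely. The large subunit ran from 27.6 to 3129 FPKM and the small subunit from 38.6 to 1378 FPKM. The 43 large subunit genes had a median of 468 FPKM with quartiles of 322 and 676, and the 30 small subunit genes had a median of 576 FPKM with quartiles of 393 and 753. On the log2(FPKM + 1) scale the large subunit median minus the small subunit median was -0.30, and the interquartile ranges of single genes were 1.07 for the large and 0.94 for the small subunit. Whether the medians differ was not tested. Each subunit had 2 genes below 100 FPKM.

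The stalk proteins recruit the elongation factors to the large subunit, with P0 as the base that binds the P1 and P2 dimers. Rplp1 at 1013 FPKM and Rplp0 at 959 FPKM stood 1.06-fold apart. Rplp2, the dimer partner of Rplp1, was lower at 208 FPKM, so that Rplp1 had 4.86 times its level. Rpl5 and Rpl11, which bind the 5S ribosomal RNA and, when free of ribosomes, the p53 regulator MDM2, stood at 232 and 544 FPKM. Rpl11 thus had 2.34 times the level of its partner.

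Genes of the exit tunnel and its mouth ranged from 27.6 to 925 FPKM, and the median of these 9 was 414 FPKM. Rpl4 at 818, Rpl17 at 749.9 and Rpl39 at 557 FPKM encode proteins in the tunnel wall. At or near the mouth, where the signal recognition particle and the membrane channel dock, Rpl26 stood at 925, Rpl19 at 414, Rpl35 at 377, Rpl23a at 162, Rpl22 at 144 and Rpl31 at 27.6 FPKM. Rpl26 therefore had 33.5 times the level of Rpl31, the widest ratio within this role group.

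In the small subunit, the mRNA entry and decoding genes ran from Rps2 at 110.4 FPKM through Rps3 at 302 and Rps9 at 409 to Fau at 765 and Rps15 at 1378 FPKM. Fau encodes a ubiquitin-like fusion from which the ribosomal protein S30 is cut. Rps2 and Rps3 sit beside each other at the mRNA entry, and Rps3 had 2.74 times the level of Rps2. At the mRNA exit, Rps26 at 609, Rpsa at 593 and Rps14 at 496 FPKM lay close together, whereas Rps28 stood at 41.4 FPKM, and Rps26 had 14.7 times its level. The genes of the head and its beak Rps29, Rps18 and Rps10 were at 1053, 863 and 749.5 FPKM, and Rps12, Rps19 and Rps20 at 468, 393 and 116 FPKM. Rps6, the substrate from which the S6 kinases take their name, was at 393 FPKM.

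Some ribosomal proteins are made as fusions to ubiquitin or a ubiquitin-like protein. Rps27a, the source of the small subunit protein S27a, stood at 754 FPKM and Fau at 765 FPKM, side by side in rank. Gnb2l1, the older symbol of Rack1, a scaffold for kinases on the small subunit, was at 181 FPKM. With Fau and Gnb2l1 added to the core, 71 of 75 genes reached 100 FPKM.

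In humans, mutations in several ribosomal protein genes cause Diamond-Blackfan anaemia. Of 15 such genes listed here, all in the core set, 13 (86.7%) reached 100 FPKM, against 94.5% of all 73 core genes. The median of the 15 was 608 FPKM, against 515 FPKM over all 73. The list does not hold every such gene. Rpl35a was highest at 1426 FPKM, Rps24 and Rps7 stood at 659 and 627, Rpl27 at 608 and Rps19, the gene in which such mutations were first found, at 393 FPKM. Rps28 and Rpl31 were the members of this list below 100 FPKM.

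Paralogs of ribosomal protein genes ranged from near the level of their main gene to less than a hundredth of it. Rpl22l1, which in mouse can stand in for Rpl22, was at 118 FPKM, beside 144 FPKM for Rpl22, or 82.2% of it. Rps27l, a p53 target gene in human cells, was at 348 FPKM, beside 923 FPKM for Rps27, or 37.7%. Rpl36al, an autosomal copy of the X-linked Rpl36a, was at 92.2 FPKM, beside 553 FPKM, or 16.7%. Rpl22 and Rpl22l1 were both below the core median, while Rps27 was among the higher core genes.

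**Figure D2:**
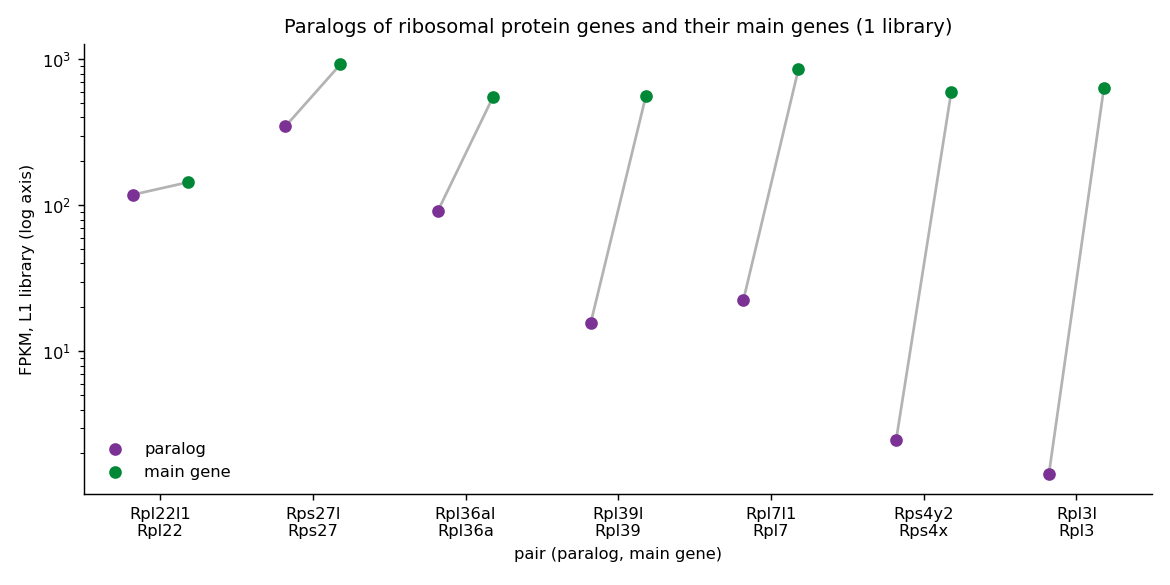
FPKM in the L1 library, on a log axis, of 7 paralogs (left point of each pair) and their main genes (right point), ordered by the ratio of paralog to main gene. Rpl22l1 reached 82.2% of Rpl22 at the left end, and Rpl3l 0.23% of Rpl3 at the right end.

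The other paralogs were low. Rpl39l, known from testis, stood at 15.7 FPKM, beside 557 FPKM for Rpl39, and Rpl7l1 at 22.6 FPKM, beside 859 FPKM for Rpl7. They came to 2.82% and 2.63% of their main genes. Rpl3l, which replaces Rpl3 in skeletal muscle and heart, was at 1.45 FPKM, beside 636 FPKM for Rpl3, in a tissue where the muscle genes Tnnt3, Ckm and Acta1 stood at 37.2, 27.6 and 25.03 FPKM. Rps4y2, whose current symbol is Rps4l and which the gene table lists as a transcribed pseudogene, was at 2.49 FPKM, beside 595 FPKM for Rps4x. The pseudogene Rps19-ps3 was at 0.14 FPKM. Rps19bp1, which encodes a binding partner of Rps19 and no ribosomal protein, was at 27.4 FPKM, and Rps19 had 14.3 times its level. Reads of paralogs that are nearly identical to their main gene, such as Rpl36al, may be split between them, so these ratios are uncertain.

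Nearly every member had a single locus among the loci with 1 symbol. Loci with no symbol or with several symbols were not counted. Several loci were found for 6 of 82 members (7.32%), against 25.8% of all named genes. In Rpl37 the second locus held 1.65 FPKM, or 0.68% of the highest. In Rps12 and Rpl26 it held 0.25 and 0.12 FPKM, and in no other core gene more than 0.31 FPKM, so the choice of the highest locus changed no core level by more than that share. Rpl39l had a second locus at 1.01 FPKM, which is 6.39% of its highest.

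The oligopyrimidine start was looked for at the annotated starts. RefSeq promoter windows of the build GRCm38.p6, from 250 bases before to 50 bases after an annotated start, were matched for 60 members, 53 of them core genes. The windows shown run from 30 bases before the start to 20 bases from it, and they were chosen to show genes with the pyrimidine stretch at the start and genes without it. In the first set, the 6 genes of the highest level with a C at the start and at least 4 further C or T, capitals mark the unbroken stretch of C and T from the start.
Rpl35a, GRCm38.p6, chr16:33056452-33056501, plus strand: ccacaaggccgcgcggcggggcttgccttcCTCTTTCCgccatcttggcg
Rps21, GRCm38.p6, chr2:180257349-180257398, plus strand: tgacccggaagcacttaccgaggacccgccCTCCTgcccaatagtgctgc
Rps27, GRCm38.p6, chr3:90213629-90213678, minus strand: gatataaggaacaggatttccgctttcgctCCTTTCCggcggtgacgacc
Rps18, GRCm38.p6, chr17:33955646-33955695, minus strand: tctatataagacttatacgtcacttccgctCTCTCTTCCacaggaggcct
Rps10, GRCm38.p6, chr17:27635225-27635274, minus strand: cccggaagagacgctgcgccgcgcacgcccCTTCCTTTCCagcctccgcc
Rpl14, GRCm38.p6, chr9:120571487-120571536, plus strand: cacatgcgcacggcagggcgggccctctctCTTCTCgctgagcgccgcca
The stretch was between 5 bases in Rps21 and 10 bases in Rps10. Rpl35a has 3 annotated starts and carried it at 1 of them.

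In the second set, the 3 highest and the 3 lowest genes without such a stretch within 5 bases of an annotated start, the capital marks the annotated start.
Rpl41, GRCm38.p6, chr10:128549149-128549198, minus strand: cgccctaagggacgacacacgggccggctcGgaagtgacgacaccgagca
Rps15, GRCm38.p6, chr10:80292401-80292450, plus strand: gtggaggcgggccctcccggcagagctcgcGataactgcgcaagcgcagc
Rps16, GRCm38.p6, chr7:28350659-28350708, plus strand: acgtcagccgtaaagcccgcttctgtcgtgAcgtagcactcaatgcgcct
Rpl5, GRCm38.p6, chr5:107900498-107900547, plus strand: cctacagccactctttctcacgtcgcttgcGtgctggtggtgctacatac
Rpl22, GRCm38.p6, chr4:152325696-152325745, plus strand: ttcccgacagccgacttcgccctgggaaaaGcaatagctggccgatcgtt
Rps28, GRCm38.p6, chr17:33824543-33824592, minus strand: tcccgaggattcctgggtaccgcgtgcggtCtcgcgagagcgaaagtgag
Rpl41, Rps15 and Rps16, which are among the 4 highest core genes, are in this set, and so is Rps28. An annotated start can lie away from the base where most transcripts begin, so a missing match here says only that these letters are not at this position.

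A gene with several annotated starts was counted when any of them matched. A C followed by at least 4 C or T stood at the annotated start of 13 of 53 core genes (24.5%). In all 27025 genes of the promoter table it stood at the start of 813 (3.01%), and in 268 other genes of at least 100 FPKM at that of 10 (3.73%). None of 65 mitochondrial ribosomal protein genes had it. Within 5 bases of the start it was found in 23 core genes (43.4%), in 21.2% of all genes, in 24.6% of the other genes of at least 100 FPKM and in 26.2% of the mitochondrial ribosomal protein genes. The share was 22.6% in the large and 27.3% in the small subunit at the start itself. With only the first listed start of each gene, 12 core genes (22.6%) and 2.49% of all genes carried the stretch at it. The 13 genes with the stretch at the start had a median of 393 FPKM, and the 40 without it one of 575 FPKM.

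**Figure D3:**
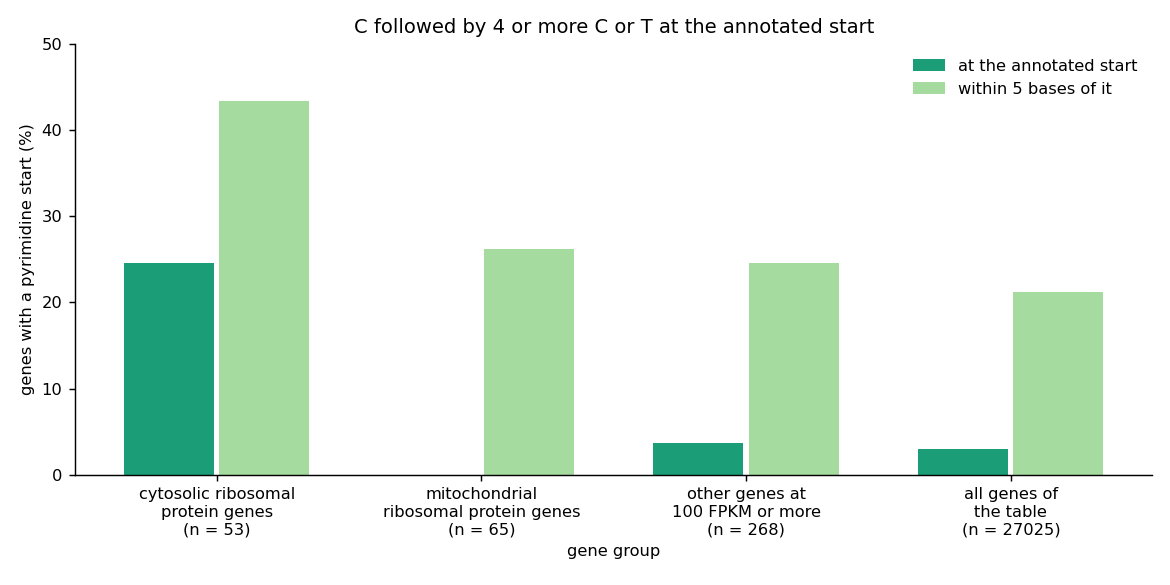
Percent of genes with a C followed by at least 4 C or T at the annotated start (dark bars) and within 5 bases of it (light bars), in core ribosomal protein genes, mitochondrial ribosomal protein genes, other genes of at least 100 FPKM and all genes of the promoter table. At the start itself the bars stand at 24.5%, 0%, 3.73% and 3.01%.

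Other short sequences were searched on both strands of the whole 300-base window, and none of them contains another. CCGGAAGT, a site of ETS family factors such as GABP, was in 11 of 53 core genes (20.8%) and in 18.5% of the mitochondrial ribosomal protein genes. It was in 4.85% of other genes at 100 FPKM or more and in 4.31% of all genes. ATGGCG, the core of the YY1 site, was in 15 core genes (28.3%) and in 26.2% of the mitochondrial ones. It was in 15.7% of other genes at 100 FPKM or more and in 10.2% of all genes. GGGCGG, the site of SP1, was in 58.5% of core genes, in 49.2% of the mitochondrial ones, in 62.3% of other genes at 100 FPKM or more and in 38.2% of all genes. TATAAA was in 11.3% of core genes, in 11.6% of other genes at 100 FPKM or more and in 15.7% of all genes. TTCNNNGAA, the letters of a STAT5 site, was in 3 core genes, Rplp0, Rpl4 and Rpl35 (5.66%). It was in 8.21% of other genes at 100 FPKM or more and in 9.55% of all genes. These matches describe letters in the windows, not binding.

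Set beside 3 related groups, the core cytosolic ribosome genes had the highest median. The 71 mitochondrial ribosomal protein genes had a median of 16.9 FPKM, from 2.51 to 168 FPKM, so the cytosolic median was 30.5 times higher, a difference of 4.85 on the log2(FPKM + 1) scale. The highest mitochondrial gene, Mrps6 at 168 FPKM, exceeded 9 of the 73 cytosolic genes. The median of the 38 proteasome genes was 38.1 FPKM, with Psma7 highest at 138, and that of the 62 genes with an Eif or Eef symbol and a digit was 24.8 FPKM. These groups were taken by symbol. The proteasome group therefore also holds Psmc3ip, which encodes a binding partner of Psmc3 and no subunit, at 3.97 FPKM. The Eif and Eef group holds translation factors together with kinases, repressors and Argonaute genes. The interquartile ranges on the log2(FPKM + 1) scale were 1.11 for the cytosolic ribosome, 1.55 for the mitochondrial ribosome, 1.38 for the proteasome and 2.23 for the Eif and Eef genes. The core set leaves out paralogs and pseudogenes, and with all 82 members its range was 1.39, so it was not narrower than that of the proteasome. These are ranges between genes of 1 library, and no test of the difference was made.

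**Figure D4:**
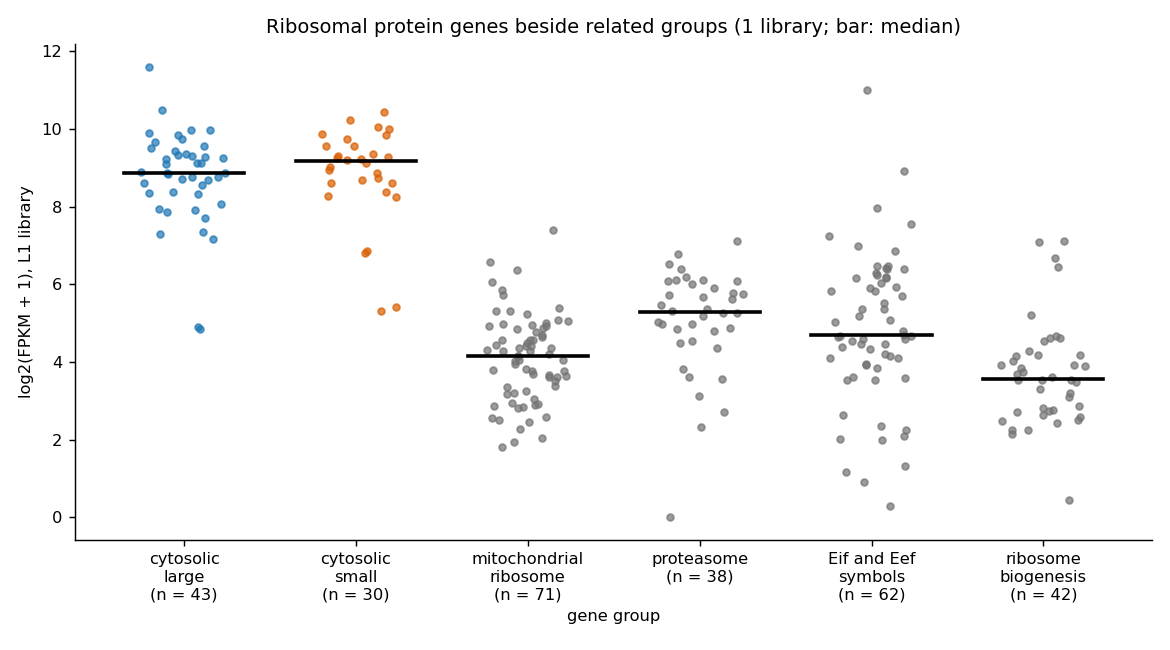
Level on the log2(FPKM + 1) scale, with 1 point per gene, of core cytosolic ribosomal protein genes by subunit and of 4 other groups, with the median as a bar. The cytosolic medians are 8.87 for the large and 9.17 for the small subunit, and the other medians lie between 3.57 for ribosome biogenesis and 5.29 for the proteasome.

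Genes that build the ribosome were far less abundant than those of its proteins. Of 42 biogenesis genes, 3 (7.14%) reached 100 FPKM, against 2.96% of all named genes. Their median was 10.9 FPKM, so the core median was 47.2 times higher, while the median of all named genes was 3.90 FPKM. The highest were Nop10, part of the particles that pseudouridylate ribosomal RNA, at 139 FPKM, Polr1d, a subunit shared by RNA polymerases I and III, at 134, the nucleolin gene Ncl at 101 and the nucleophosmin gene Npm1 at 86.03. The lowest were the pseudouridine synthase gene Dkc1 at 3.43 and Mdn1, a large remodelling enzyme of the maturing large subunit, at 0.35 FPKM. Nop10 and Dkc1, which work in the same particle, were thus at opposite ends of the list.

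The 18 other genes known for an oligopyrimidine start had a median of 120.4 FPKM, and 10 of them reached 100 FPKM. The elongation factor gene Eef1a1 led at 2040 FPKM, a level passed among the core genes by Rpl41 alone, followed by Fau and Eef2 at 482. The lowest were Hnrnpa1 at 22.5 and Tpt1 at 1.23 FPKM. A further list of 13 held genes that control translation of these mRNAs or sense unassembled ribosomal proteins. It also held Myc, Mycn and Max, which belong to neither kind. None of the 13 reached 100 FPKM, a level that only 2.96% of all named genes reached, and their median was 11.8 FPKM. Larp4 was at 32.8, the MYC partner gene Max at 26.2, the translation repressor genes Eif4ebp1 and Eif4ebp2 at 24.01 and 23.3, and Larp1 at 22.7 FPKM. Mdm2 and Trp53 stood at 11.8 and 9.90 FPKM, the S6 kinase genes Rps6kb1 and Rps6kb2 at 10.1 and 5.66, Mtor at 3.47 and Mycn at 0.21 FPKM.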

How the data were processed

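The authors deposited FPKM values for 1 RNA-seq library of 11 samples, for each assembled locus. Per the submitters' processing notes, CASAVA, TopHat and the build mm9 were used. The tool that computed FPKM, the treatment of multiply mapping reads and the depth are not stated there. Of 30305 loci, 21958 carried 1 symbol, 117 several and 8230 none, the last with 53.3% of the summed FPKM. A gene took its highest locus, with no minimum level. Medians are of FPKM or log2(FPKM + 1). With 1 library no test was made and no p-value computed. Promoter windows and gene names came from RefSeq tables of GRCm38.p6, to which all 82 members were matched by symbol or older symbol. The motif search was tested on simulated sequences of A and G with planted matches, so chance matches were not tested. Python 3.11.15, pandas 2.3.3, numpy 2.4.6 and scipy 1.17.1 were used.

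The members and lists were chosen with earlier results of these data known. Named are the 10 highest and 10 lowest core genes, all genes of the role groups and paralog pairs, other members, and the 4 highest and 2 lowest genes of each pathway list, with a few further ones. The core set leaves out paralogs, pseudogenes and Rps19bp1. Alternatives were the sum over loci, genes with 1 locus, a minimum of 1 FPKM, all members, loci with several symbols, a pseudocount of 0.1 and, chosen after seeing the data, the addition of Fau and Gnb2l1. Values of some single genes are left out of the text and the plot by gene.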

Additional observations from a re-analysis of the deposited data

How the results depend on the processing

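The core median of 9.01 on the log2(FPKM + 1) scale became 9.05 with genes of 1 locus only and 8.87 with all members. The large minus small subunit difference of -0.30 became -0.17 with all members and kept its sign under all alternatives run. The share of 3.86% became 5.06% with genes of 1 locus, 3.87% with a minimum of 1 FPKM, 3.92% with all members, 3.96% with loci of several symbols and 3.95% with Fau and Gnb2l1. The interquartile range of 1.11 became 1.13 with genes of 1 locus, 1.39 with all members and 1.15 with loci of several symbols or with Fau and Gnb2l1. The cytosolic minus mitochondrial difference of 4.85 became 5.01 with genes of 1 locus, 4.71 with all members, 4.86 with loci of several symbols and 4.92 with a pseudocount of 0.1. The count of core genes at 100 FPKM or more was 69, and 64 with genes of 1 locus. It became 71 with all members, with loci of several symbols or with Fau and Gnb2l1, which add genes to the core set. At this rounding the sum over loci changed none of these values. No paired analysis was possible because the library has no replicate. Depth is unknown, so counting error could not be given.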

Other observations

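The core genes were also split by descent, a division chosen after the values were seen. Of 73 core genes, 32 encode proteins with a counterpart in bacteria and 41 encode proteins without one. The 32 had a median of 552 FPKM, from 38.6 to 1378 FPKM, and the 41 a median of 479 FPKM, from 27.6 to 3129 FPKM. Their ranges overlapped almost entirely. Rpl41, the highest gene, is in the group without a bacterial counterpart, and of the 4 genes below 100 FPKM only Rps15a has one.

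In mouse the ribosomal protein genes Rpl10, Rpl36a, Rpl39 and Rps4x lie on the X chromosome. They stood at 318, 553, 557 and 595 FPKM, all within 2-fold of the core median of 515 FPKM, as were 54 of all 73 core genes. Rpl10, whose protein joins the large subunit late in its assembly, was the lowest of them.

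Tpt1, which encodes a growth-related protein and shares the oligopyrimidine start, was at rank 10512 of 14847 named genes with 1.23 FPKM, while Eef1a1, of the same list, was at rank 34. Whether its fragments lie in loci with no symbol was not tested.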
